A study of Rattus norvegicus with 20 samples.

Results

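The 10 genes studied here belong to synaptic vesicle endocytosis and were followed through the postnatal maturation of globular bushy cells: the dynamins Dnm1, Dnm2 and Dnm3, the membrane-bending proteins Amph, Bin1 and Sh3gl2, the lipid phosphatase Synj1, the clathrin assembly proteins Snap91 and Picalm, and the clathrin light chain Cltb. The members were all probe sets whose platform annotation names exactly 1 gene and whose symbol is on that list. The rule found 13 probe sets of 9 genes among 20826 probe sets with 1 gene, and Picalm was not analysed here. Globular bushy cells lie in the ventral cochlear nucleus, and their axons cross the midline and end in the medial nucleus of the trapezoid body (MNTB) as giant terminals, the calyces of Held. In Sprague Dawley rats a fluorescent tracer, cholera toxin B, was injected into the MNTB of the other side, and after 24 hours 200 labelled cells per animal were cut from 12 µm brainstem sections by laser microdissection. The RNA of each animal was amplified linearly and hybridised to 1 array. The groups were 6 animals at postnatal day 3 (P3), when the synapse forms, 9 at P8, when it is juvenile, and 5 at P21, when it is mature. All animals received the tracer, and no group differed by genotype or treatment. Cells were recognised by the tracer, and each array reads the pooled RNA of the cut cells of 1 animal.

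After a vesicle has fused with the terminal membrane, its lipids and proteins are taken back up. Clathrin, made of heavy and light chains, forms a coat with the help of assembly proteins such as AP180 (Snap91). Proteins with a BAR domain, among them amphiphysin (Amph), its relative Bin1 and endophilin A1 (Sh3gl2), bend the membrane into a neck and recruit dynamin, a GTPase that cuts the neck. Synaptojanin 1 (Synj1) then removes phosphates from membrane phosphoinositides so that the coat can be shed. Dynamin 1 is the main form of nerve terminals, dynamin 2 is made in most tissues and dynamin 3 is enriched in brain and testis. The calyx of Held is a terminal at which this retrieval has been studied for its speed.

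Levels are given as log2(intensity + 1), and changes are differences of age means on that scale with limma's standard error after the ± sign. Folds on this scale understate the change of dim probe sets. P8 replicates 5 to 9 stood apart: the mean of their bacterial control probe sets was 6.80 to 7.52 where the other 15 arrays had 4.07 to 4.48. Their median intensity was 58.9 to 67.5 against 23.8 to 32.5. The tests therefore used the other 15 arrays, with P8 represented by replicates 1 to 4, and replicates 5 to 9 are described apart. All 8 general neuron markers and all 9 bushy cell and fast auditory neuron markers exceeded log2 4 in at least 1 array of each age, and summed intensities of the latter were 3352 to 3622 at P3, 6091 to 10035 at P8 and 11991 to 17466 at P21. The arrays also carried RNA of other cells. The 11 measured of 12 oligodendrocyte and myelin markers summed to 820 to 2185 at P3, 5718 to 8896 at P8 and 7278 to 10829 at P21, and 11 of 11 were called higher at P21 than at P3. The 8 microglial markers summed to 206 to 336, 154 to 271 and 207 to 272, the 8 astrocyte markers to 3686 to 8349, 3328 to 5715 and 4312 to 5707 and the 5 measured of 6 endothelial markers to 347 to 739, 363 to 643 and 475 to 599. The 4 markers of inhibitory neurons summed to 754 to 1358, 417 to 943 and 292 to 784, and the 5 measured of 6 of oligodendrocyte precursors to 1368 to 1894, 873 to 1135 and 403 to 792. None of the markers was at 0 in all arrays of an age. Ermn and Opalin of the oligodendrocyte list at P3, Slc6a5 of the inhibitory list at all ages, Gad2 at P8 and P21, Slc1a2 of the astrocyte list at P8, Itgam of the microglial list at all ages, C1qb of that list at P21 and the precursor marker Olig2 at P3 stood at or below log2 4 in every array. The gap between 3′ and 5′ control probe sets of GAPDH, which is larger for shorter amplified RNA, ran from 2.52 to 3.20 at P3, 2.91 to 3.86 at P8 and 3.30 to 4.71 at P21. The part of these values in the results below was not tested. In such samples fewer cells of a type and less RNA per cell cannot be told apart.

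The stretch in front of a gene's start is shown for 3 genes. Only for these 3 did the RefSeq window of assembly GRCr8 lie wholly outside the annotated gene. Their results below are a rise (Synj1), a call at the threshold in 1 of a pair of probe sets (Dnm3) and a level too low to test (Sh3gl2). Amph and Snap91, which were tested and did not pass, are not among them. The windows hold the 250 bases before the start, 5′ to 3′ on the gene's strand, at chr11:43755527-43755776 on the minus strand for Synj1, chr13:77371347-77371596 on the minus strand for Dnm3 and chr5:104699020-104699269 on the plus strand for Sh3gl2. Capitals mark the GC box, the letters GGGCGG on either strand, matches that overlap each other counted separately.
Synj1: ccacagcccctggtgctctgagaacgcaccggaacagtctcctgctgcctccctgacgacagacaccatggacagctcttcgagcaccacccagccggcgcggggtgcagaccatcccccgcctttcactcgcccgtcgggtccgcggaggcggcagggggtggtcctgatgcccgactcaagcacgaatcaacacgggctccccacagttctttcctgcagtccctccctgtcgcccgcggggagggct
Dnm3: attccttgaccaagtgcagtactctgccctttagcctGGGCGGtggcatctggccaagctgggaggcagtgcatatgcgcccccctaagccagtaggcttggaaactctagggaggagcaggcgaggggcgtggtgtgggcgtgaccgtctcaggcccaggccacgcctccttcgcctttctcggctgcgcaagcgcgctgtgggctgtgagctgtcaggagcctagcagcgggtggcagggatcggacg
Sh3gl2: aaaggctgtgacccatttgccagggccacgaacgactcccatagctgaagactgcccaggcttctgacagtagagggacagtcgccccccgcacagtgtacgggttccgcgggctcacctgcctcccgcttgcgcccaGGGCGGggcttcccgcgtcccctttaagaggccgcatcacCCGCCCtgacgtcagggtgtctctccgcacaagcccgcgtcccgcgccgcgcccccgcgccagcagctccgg
The GC box stood 0 times in the window of Synj1, 1 time in that of Dnm3 and 2 times in that of Sh3gl2. Windows of 9 of the 10 genes matched by symbol (not Snap91), and 5 of them held a GC box, against 30.5% of all 33469 windows of that length. A CCAAT box (CCAAT, either strand) stood in 1, that of Dnm2, against 34% of all windows. A half-site of the cyclic AMP response element (TGACG, either strand) stood in 5 of 9, against 18.2%. A TATA box (TATAAA, either strand) and an E-box (CACGTG) stood in 0 and 0, against 12.9% and 5.59%. The GC content of the 9 windows ran from 55.2% in Dnm2 to 79.2% in Picalm, against a median of 51.2% over all windows. Genes that rose between P3 and P21 had windows with GC boxes (5 in Bin1 and 3 in Cltb) and without (0 in Dnm1 and 0 in Synj1). Such matches describe letters in a window and are not binding sites. These shares were not tested.

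The question of the series is which genes change from calyx formation to the mature synapse. Between P3 and P21, Dnm1, Bin1, Synj1 and Cltb rose between 1.46-fold and 2.72-fold, while Amph and the bright probe set of Snap91 differed by -0.057 and 0.033 on the log2 scale and did not pass. One probe set of Dnm3 rose by 1.36-fold at the edge of the threshold. Of the 13 probe sets, 10 lay above log2 4 in at least 5 of the 15 arrays and were tested. Of these, 7 probe sets of 6 genes rose, 0 fell and 3 did not pass (limma, Benjamini-Hochberg over 15647 probe sets, adjusted p under 0.05). Over all probe sets tested 39.1% were called, 20.1% higher and 19% lower. The median change was 0.70 for the 10 and 0.024 for all. The members were chosen with earlier results of these data known, so the counts beside the shares over all are no test of the set. Dnm2 passed the filter through its P8 and P21 arrays alone, since 0 of its 6 P3 arrays lay above log2 4, so the filter itself favoured a rise for it. Without Dnm2, 6 of 9 probe sets rose, with a median change of 0.55. In 5 of the 10 probe sets every P21 array lay above every P3 array, against 15.1% of all probe sets, and without Dnm2 in 4 of 9. These 5 were the probe sets of Dnm1, Dnm2, Bin1 and Synj1 and the dimmer one of Cltb.

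**Figure D1:**
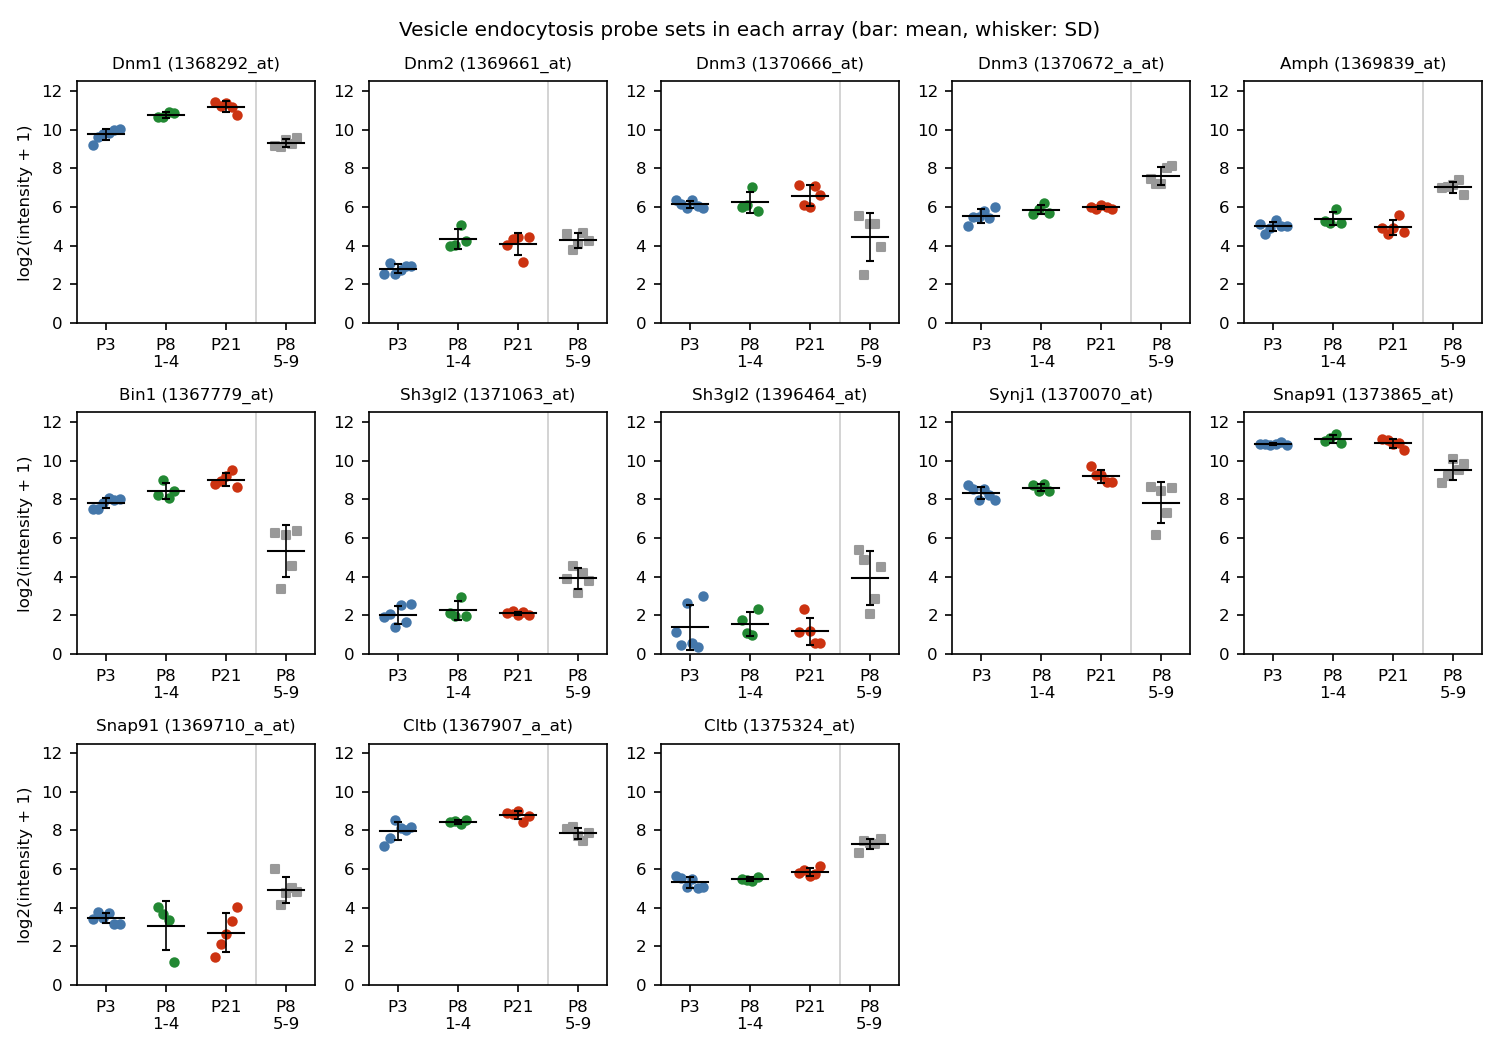
Level of each of the 13 probe sets in every array, as log2(intensity + 1) on the vertical axis, with age on the horizontal axis. Circles are the 15 arrays of the tests (P3, P8 replicates 1 to 4, P21), grey squares are P8 replicates 5 to 9, bars are means and whiskers SD. The P21 circles of Dnm1, Dnm2, Bin1, Synj1 and the dimmer Cltb probe set lie above all of their P3 circles, and the grey squares lie below or above the other P8 arrays in 10 of 13 panels.

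Among the dynamins, which cut the neck of the forming vesicle, Dnm1 was higher in P8 replicates 1 to 4 than at P3. Its 6 P3 arrays ran from 9.23 to 10.07 with a median of 9.80. The P8 arrays of replicates 1 to 4 stood at 10.65, 10.65, 10.94 and 10.87, and the P21 arrays at 11.45, 11.25, 11.39, 11.18 and 10.74. All P8 and all P21 arrays lay above all P3 arrays, and the P8 and P21 arrays overlapped. Dnm1 rose by 1.02 ± 0.18 from P3 to P8 (2.03-fold, limma adjusted p = 0.00236) and by 1.45 ± 0.17 from P3 to P21 (2.72-fold, adjusted p = 1.18e-05). From P8 to P21 the difference was 0.42 ± 0.19 and did not pass (adjusted p = 0.144). The P3 to P8 rise rests on P8 replicates 1 to 4. In replicates 5 to 9 Dnm1 stood at 9.10 to 9.60, overlapping P3, and with these counted as P8 the change was 0.21 and did not pass (adjusted p = 0.620).

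Dnm2, the widely expressed dynamin, was read by 1 dim probe set. Its P3 arrays ran from 2.56 to 3.12 with a median of 2.82, which is an intensity of 4.9 to 7.7. At P8 the arrays stood at 4.00, 4.04, 5.07 and 4.26, and at P21 at 4.04, 4.36, 4.47, 3.15 and 4.47. Every later array lay above every P3 array, though P21 replicate 4 (3.15) lay next to the highest P3 array (3.12). All P3 arrays lay below the log2 4 of the filter, so the sizes of the differences are uncertain and no fold is given. P8 stood 1.54 ± 0.27 above P3, and P21 stood 1.29 ± 0.25 above P3 (limma adjusted p = 0.00204 and 8.97e-04). In a limma fit with no filter on low values the adjusted p was 0.00330 and 0.00142. That fit reads the same low P3 values, so it is no separate support for the differences. From P8 to P21 the difference was -0.24 ± 0.28 (adjusted p = 0.596).

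Dnm3, the form enriched in brain and testis, had a pair of probe sets in the test. The brighter, 1370666_at, ran from 5.93 to 6.36 with a median of 6.11 at P3, and stood at 6.00, 6.13, 7.05 and 5.82 at P8 and at 7.13, 6.11, 6.00, 7.09 and 6.65 at P21. The ages overlapped, and of the P21 arrays replicates 1, 4 and 5 lay above the P3 range and replicates 2 and 3 inside it. Its change from P3 to P21 was 0.46 ± 0.25 (limma adjusted p = 0.159). The other probe set, 1370672_a_at, ran from 5.00 to 6.02 with a median of 5.50 at P3 and stood at 5.64, 5.92, 6.21 and 5.72 at P8 and 5.98, 5.90, 6.13, 6.01 and 5.92 at P21. The 5 P21 arrays were close together and overlapped the highest P3 array. It rose by 0.45 ± 0.17 (1.36-fold, adjusted p = 0.0490), a call at the threshold that held in 3 of 15 fits with 1 array left out, with adjusted p from 0.0171 to 0.102. It held without P3 replicate 4, P3 replicate 6 or P8 replicate 3 and ended without any other array. The P8 arrays enter this call only through the shared spread and the adjustment. It also ended with a pseudocount of 16, with no filter, with array medians subtracted and with a variance trend (adjusted p = 0.0533, 0.0662, 0.0530 and 0.0610). For both probe sets the difference from P3 to P8 (0.11 ± 0.27 and 0.33 ± 0.18) and from P8 to P21 (0.35 ± 0.28 and 0.11 ± 0.19) did not pass.

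Whether the dynamins changed unequally was tested on the difference between their leading probe sets within each array, by an exact two-sided permutation test over arrays, with Benjamini-Hochberg adjustment over 12 tests (4 pairs of related genes and 3 comparisons). The Dnm1 minus Dnm3 difference was 3.62 ± 0.45 at P3 (SD, n = 6) and 4.61 ± 0.61 at P21 (SD, n = 5), so Dnm1 gained 0.98 on Dnm3 (exact permutation p = 0.00866, 0.0260 after adjustment). The arrays of the ages overlapped narrowly, from 2.87 to 4.13 at P3 and from 4.09 to 5.38 at P21. With 1 array left out the adjusted p ran from 0.0238 to 0.0714 and passed in 7 of 15 such tests. Leaving out a P8 array removes nothing from this comparison. Of the P3 and P21 arrays, it passed without P3 replicate 6 or P21 replicate 4 or 5. It did not pass without P3 replicate 1, 2, 3, 4 or 5 or without P21 replicate 1, 2 or 3. Dnm2 gained 1.42 on Dnm3 from P3 to P8, with differences from -3.79 to -3.01 at P3 and from -2.10 to -1.56 at P8 with no overlap (exact permutation p = 0.00476, the smallest that 6 against 4 arrays can give, and 0.0260 after adjustment). The P3 side of this test rests on Dnm2 values below log2 4, and Dnm2 passed the filter through its P8 and P21 arrays alone. The filter thus favoured a gain, and this p is no support for a rise of Dnm2. The gain was 0.59 with a pseudocount of 16, so its size is uncertain. From P3 to P21 that gain was 0.83 and did not pass (exact permutation p = 0.0974, 0.167 after adjustment). Between Dnm1 and Dnm2 no comparison passed after adjustment, and the sign of the P3 to P8 change turned with the pseudocount (-0.52 with 1 and 0.31 with 16).

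**Figure D2:**
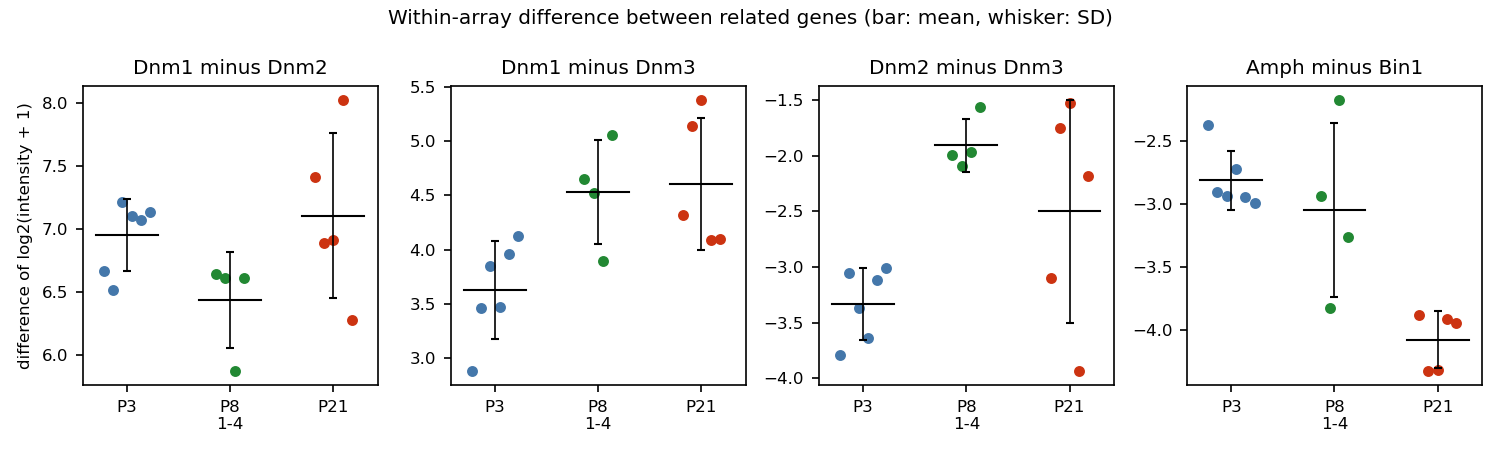
Difference of log2(intensity + 1) between the leading probe sets of 2 related genes within each array (vertical axis) by age (horizontal axis), with means as bars and SD as whiskers. Amph minus Bin1 lies between -4.33 and -3.88 at P21, below all P3 arrays, and Dnm2 minus Dnm3 is higher in all 4 P8 arrays than in the 6 P3 arrays. The P3 values of Dnm2 lie below log2 4.

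Of the membrane-bending proteins, Bin1 rose from P3 to P21, while Amph passed in no comparison of the 15 arrays. Amph, which binds dynamin and clathrin and is concentrated in nerve terminals, ran from 4.61 to 5.34 with a median of 5.02 at P3, stood at 5.30, 5.18, 5.92 and 5.19 at P8 and at 4.90, 4.60, 4.90, 5.61 and 4.71 at P21. All ages overlapped. Its differences were 0.40 ± 0.21 for P8 vs P3, -0.45 ± 0.22 for P21 vs P8 and -0.057 ± 0.20 for P21 vs P3, and none passed (limma adjusted p = 0.223, 0.184 and 0.848). Without P21 replicate 4, the highest P21 array, the P21 vs P8 difference passed (-0.62, adjusted p = 0.0484). Bin1, made in neurons, muscle and oligodendrocytes in different splice forms, ran from 7.50 to 8.06 with a median of 7.91 at P3, stood at 8.24, 9.01, 8.09 and 8.46 at P8 and at 8.78, 8.94, 9.22, 9.53 and 8.66 at P21. Every P8 and every P21 array lay above every P3 array, and P8 replicate 2 lay within the P21 range. Bin1 rose by 1.21 ± 0.20 from P3 to P21 (2.31-fold, adjusted p = 2.52e-04). The steps of 0.63 ± 0.21 to P8 and 0.58 ± 0.22 from P8 to P21 did not pass (adjusted p = 0.0587 and 0.0920). The first step passed with a pseudocount of 16, a filter at log2 6, array medians subtracted or a variance trend (adjusted p = 0.0438, 0.0374, 0.0493 and 0.0410), and was -1.10 with P8 replicates 5 to 9 counted as P8. Without P8 replicate 3 it passed too (adjusted p = 0.0436), and without P8 replicate 2 the second did (adjusted p = 0.0307). P21 replicate 4 is not part of the first step. Without it that step stayed at 0.63, and its adjusted p of 0.0468 came through the shared spread and the adjustment alone. The oligodendrocyte markers, of a cell type that also makes Bin1, rose over the same ages, and their part in the Bin1 change was not tested.

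Within the arrays Amph fell relative to Bin1. Their difference was -2.82 ± 0.23 at P3 (SD, n = 6) and -4.08 ± 0.23 at P21 (SD, n = 5). This is a change of -1.27 with no overlap (exact permutation p = 0.00216, the smallest these group sizes can give, and 0.0260 after adjustment). It passed with any 1 of the P3 or P21 arrays left out. From P8 to P21 the change was -1.03 with no overlap, from -3.83 to -2.17 at P8 and from -4.33 to -3.88 at P21. The exact permutation p was 0.00794, the smallest these group sizes can give, and 0.0260 after adjustment. With 1 array left out the change passed in 7 of 15 tests, but leaving out a P3 array removes nothing from this comparison. Of the P8 and P21 arrays, it passed only without P8 replicate 3. It did not pass without P8 replicate 1, 2 or 4 or without any 1 of the P21 arrays (adjusted p up to 0.0686). With 1 array fewer at either age the smallest possible p is larger, so these failures cannot show that the change rests on single arrays. Sh3gl2 encodes endophilin A1, which brings synaptojanin and dynamin to the neck. Its probe set 1371063_at ran from 1.38 to 2.58 at P3, 1.96 to 2.94 at P8 and 2.00 to 2.20 at P21, and 1396464_at from 0.38 to 3.02, 1.00 to 2.35 and 0.58 to 2.32. Neither reached log2 4 in any of the 15 arrays, so Sh3gl2 was not tested, and low values of these probe sets do not show that the gene is silent.

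Synj1, the phosphoinositide phosphatase of uncoating, was higher at P21. Its P3 arrays ran from 7.95 to 8.75 with a median of 8.38. The P8 arrays stood at 8.75, 8.45, 8.80 and 8.44 and the P21 arrays at 9.71, 9.26, 9.28, 8.88 and 8.92. Every P21 array lay above every P3 and every P8 array, while P3 and P8 overlapped. From P3 to P21 Synj1 rose by 0.88 ± 0.19 (1.84-fold, limma adjusted p = 0.00185). The P3 to P8 difference was 0.28 ± 0.20 (adjusted p = 0.369). The P8 to P21 difference of 0.60 ± 0.21 missed the threshold (adjusted p = 0.0627) and passed with a filter at log2 6, with a pseudocount of 16, with a variance trend or without P21 replicate 4 (adjusted p = 0.0386, 0.0443, 0.0417 and 0.0480).

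Of the coat genes, Cltb rose from P3 to P21 and Snap91 did not pass, and the difference between them was not tested. Snap91, which encodes the neuronal clathrin assembly protein AP180, varied little in its bright probe set 1373865_at: 10.82 to 10.97 with a median of 10.87 at P3, 11.04, 11.21, 11.40 and 10.94 at P8 and 11.13, 11.08, 10.89, 10.91 and 10.55 at P21. The ages overlapped, and the differences of 0.27 ± 0.14 for P8 vs P3, -0.24 ± 0.15 for P21 vs P8 and 0.033 ± 0.13 for P21 vs P3 did not pass (limma adjusted p = 0.210, 0.297 and 0.866). The second Snap91 probe set, 1369710_a_at, ran from 3.15 to 3.79 at P3, 1.20 to 4.05 at P8 and 1.43 to 4.05 at P21 and was too low to test. Cltb, the light chain b of clathrin, rose in both of its probe sets. The brighter, 1367907_a_at, ran from 7.22 to 8.53 with a median of 8.07 at P3 and stood at 8.44, 8.47, 8.32 and 8.56 at P8 and 8.91, 8.87, 9.00, 8.45 and 8.75 at P21. P3 replicates 1 and 2 were the lowest arrays, and P3 replicate 3 lay inside the P21 range. It rose by 0.85 ± 0.20 from P3 to P21 (1.8-fold, adjusted p = 0.00385). The dimmer, 1375324_at, ran from 5.04 to 5.64 with a median of 5.30 at P3 and stood at 5.50, 5.41, 5.38 and 5.60 at P8 and 5.79, 5.94, 5.65, 5.75 and 6.15 at P21. Every P21 array lay above all arrays of P3 and P8, and the rise from P3 was 0.55 ± 0.15 (1.46-fold, adjusted p = 0.00970). The shorter steps did not pass for either, with differences of 0.50 ± 0.22 and 0.16 ± 0.16 from P3 to P8 and of 0.35 ± 0.22 and 0.38 ± 0.17 from P8 to P21.

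**Figure D3:**
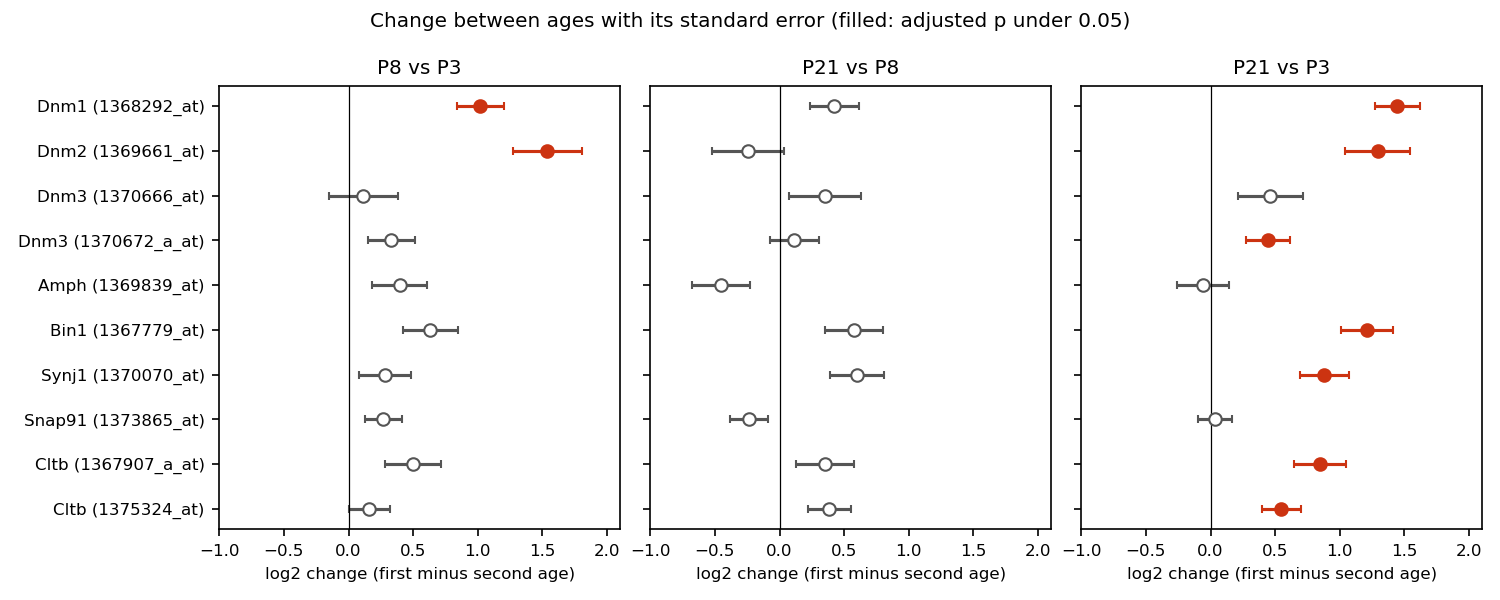
Change between ages on the log2 scale (horizontal axis) with its standard error (whiskers) for the 10 tested probe sets, in 1 panel per comparison. Filled points have an adjusted p under 0.05. Dnm1 and Dnm2 are filled for P8 vs P3, none for P21 vs P8 and 7 for P21 vs P3.

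Between P3 and P8, 2 of the 10 tested probe sets rose, Dnm1 and Dnm2, and 0 fell, against 15.6% called over all probe sets, 7.81% higher and 7.75% lower. All P8 arrays lay above all P3 arrays in 3 of 10, these and Bin1, against 7.42% of all. Without Dnm2 these counts were 1 and 2 of 9. Between P8 and P21, 0 rose and 0 fell at an adjusted p under 0.05 in limma, while 4 had an unadjusted p under 0.05. Over all probe sets 16.7% were called, 8.31% higher and 8.42% lower. Synj1 and the dimmer Cltb probe set had all P21 arrays above all P8 arrays, 2 of 10 against 7.31% of all. The median change of the 10 was 0.36 and 0.35 in these steps, and that of all probe sets -0.017 and 0.055. The comparisons share the P8 or the P3 arrays, so they are not independent of each other. The choice of members with earlier results known applies to these counts too.

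In P8 replicates 5 to 9 the same probe sets read differently. Compared with P8 replicates 1 to 4, all arrays of replicates 5 to 9 were lower in 5 of the 13 probe sets and higher in 5, with overlap in 3. Of the 10 tested between ages, 5 were lower and 3 higher. Over all tested probe sets 21.1% lay wholly above and 16% wholly below. Among those lower were bright probe sets: Dnm1 stood at 9.18, 9.10, 9.46, 9.26 and 9.60, Snap91 (1373865_at) at 8.86, 9.20, 10.11, 9.54 and 9.82 and Bin1 at 6.27, 3.35, 6.15, 4.55 and 6.35. Bin1 spread widely there, with replicates 6 and 8 far below the others. Among those higher were dimmer ones: Amph stood at 6.98, 7.02, 7.13, 7.39 and 6.62, above every other array of the series, the second Cltb probe set at 6.85, 7.47, 7.35, 7.29 and 7.55 and 1371063_at of Sh3gl2 at 3.87, 4.58, 3.15, 4.21 and 3.79. The pair of Dnm3 probe sets went opposite ways, 1370666_at to 5.54, 2.49, 5.13, 5.10 and 3.94 and 1370672_a_at to 7.43, 7.20, 7.17, 8.04 and 8.13. Synj1 was 6.17 to 8.67 and the brighter Cltb probe set 7.45 to 8.17. On these arrays the markers of fast auditory neurons summed to 2227 to 4090, microglial markers to 613 to 784 and oligodendrocyte markers to 1863 to 6472, and the GAPDH gap between 3′ and 5′ was 1.65 to 2.54. The share of any of these in the members' values was not tested, and no test was made between these arrays and the others. With them counted as P8, 3 probe sets passed for P21 vs P3 (Dnm1, Dnm2 and the brighter Cltb), and the calls of Bin1, Synj1, the dimmer Cltb and Dnm3 (1370672_a_at) ended (limma adjusted p = 0.356, 0.165, 0.489 and 0.597), although the changes themselves were the same. As a group of their own in the fit, the calls of Synj1 and Dnm3 ended (adjusted p = 0.0766 and 0.145). For P8 vs P3, 4 probe sets passed with these arrays counted as P8. They were Dnm2 (1.50, adjusted p = 0.00123), Amph (1.30, 0.0176), the dimmer Cltb (1.18, 0.0276) and Dnm3 1370672_a_at (1.29, 0.0207). For P21 vs P8, 3 passed, Dnm1 (1.23, adjusted p = 0.0177), Bin1 (2.31, 0.0280) and Amph (-1.36, 0.0188).

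The other genes of the pathway moved both ways between P3 and P21. Of 118 further genes in 8 lists, 104 were tested by their brightest probe set, of which 28 rose, 15 fell and 61 did not pass. Over all 11837 genes so represented 41.6% were called, 21.8% higher and 19.8% lower, and the medians were 0.11 for the lists and 0.038 for all genes. From P3 to P8, 17 rose and 8 fell, against 16.2% called over all genes, 8.79% and 7.44% in these directions, and from P8 to P21, 14 and 12, against 18.3% called, 8.89% and 9.46%. The lists too were chosen with earlier results of these data known, so these counts are no test of them. The values below are changes from P3 to P21 with limma's adjusted p.

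In the list of the clathrin coat and AP-2 without Snap91 and Cltb, of 11 tested genes 5 rose, 2 fell and 4 did not pass, with a median of 0.32. Ap2m1, the cargo-binding subunit of the AP-2 adaptor, ran from 9.37 to 9.77 at P3 and from 10.19 to 11.40 at P21. It rose by 1.13 ± 0.20 (adjusted p = 4.12e-04). Aak1, a kinase that phosphorylates that subunit, rose by 1.19 ± 0.23, and Necap1, an AP-2 partner of neurons, by 0.73 ± 0.14 (adjusted p = 8.66e-04 and 8.63e-04). The 2 genes that fell, Ap2a2 and Ap2b1, are AP-2 subunits too, so the subunits did not move together. They changed by -0.93 ± 0.24 and -0.44 ± 0.14 (adjusted p = 0.00629 and 0.0228), and the subunit gene Ap2s1 did not pass. In the list of scaffolds and cargo adaptors, of 17 tested genes 5 rose, 4 fell and 8 did not pass, with a median of -0.22. The epsin gene Epn3 ran from 4.41 to 5.80 at P3 and from 7.38 to 7.79 at P21 and rose by 2.48 ± 0.36 (adjusted p = 7.11e-05). Reps2, which binds Ral effectors and epsins, rose by 2.30 ± 0.18 (adjusted p = 2.58e-07). Hip1, which links clathrin to actin, fell by 1.13 ± 0.16 (adjusted p = 7.10e-05). Of 4 other tested probe sets of Hip1, 2 fell (changes of -1.32 and -1.46) and 2 did not pass (-0.50 and 0.39, the last of opposite sign). Of 3 others of Aak1, 1 rose (1.04) and 2 did not pass (1.37 and 0.33), and the other of Necap1 did not pass (0.46).

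Among the relatives and binding partners of Amph, Bin1 and Sh3gl2, of 15 tested genes 4 rose, 2 fell and 9 did not pass, with a median of 0.023. Pacsin2, a syndapin that binds dynamin, rose by 2.35 ± 0.22, with arrays from 7.61 to 8.04 at P3 and from 9.99 to 10.43 at P21 (adjusted p = 1.21e-06). The endophilin gene Sh3gl3 fell, with arrays from 5.13 to 5.93 at P3 and from 1.77 to 4.03 at P21 (adjusted p = 8.21e-05). Its P21 mean of 3.13 lies below log2 4 and it passed the filter through the younger ages, so no size is given. Sh3kbp1, an adaptor of receptor uptake that binds endophilin, fell by 1.92 ± 0.16 (adjusted p = 5.44e-07). In the rest of the dynamin superfamily, of 6 tested genes 2 rose, 0 fell and 4 did not pass, with a median of 0.16. The genes that rose were Mfn1 and Mfn2, which fuse mitochondria, by 0.71 ± 0.17 and 0.64 ± 0.16 (adjusted p = 0.00474 and 0.00471). In the list of phosphoinositide turnover without Synj1, of 14 tested genes 4 rose, 1 fell and 9 did not pass, with a median of 0.30. Pip5k1b, a kinase that makes the lipid synaptojanin degrades, rose by 1.96 ± 0.19 and the phosphatase gene Sacm1l by 1.66 ± 0.18, while the phosphatase gene Inpp4a fell by 0.83 ± 0.13 (adjusted p = 1.38e-06, 6.04e-06 and 1.87e-04).

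Dynamin 1, amphiphysin and synaptojanin are phosphorylated by Cdk5, dynamin 1 also by Gsk3, and dephosphorylated by calcineurin when calcium enters. In the list of these kinases and of calcineurin, of 12 tested genes 2 rose, 1 fell and 9 did not pass, with a median of -0.0035. Rcan2, a regulator of calcineurin, rose by 1.43 ± 0.14 and Gsk3a by 0.54 ± 0.15, while Gsk3b fell by 1.25 ± 0.34 (adjusted p = 2.00e-06, 0.00913 and 0.00837). Among genes of actin assembly, of 15 tested genes 2 rose, 5 fell and 8 did not pass, with a median of -0.16. Wasl, which encodes N-WASP, rose by 1.56 ± 0.15, while Wasf1 and the Arp2/3 subunit gene Arpc2 fell by 1.16 ± 0.14 and 1.03 ± 0.12 (adjusted p = 1.43e-06, 1.55e-05 and 1.06e-05). Of 2 other probe sets of Wasl, 1 rose (a change of 1.01) and 1 did not pass (0.53). Among genes of early endosomes and recycling, of 14 tested genes 4 rose, 0 fell and 10 did not pass, with a median of 0.32. Rab11fip5, an effector of recycling endosomes, rose by 1.40 ± 0.14, the tether gene Eea1 by 0.77 ± 0.19 and Rab5b by 0.60 ± 0.16 (adjusted p = 2.96e-06, 0.00488 and 0.00872). Another probe set of Eea1 read -0.77 without passing, and the 3 other tested probe sets of Rab5b did not pass.

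**Figure D4:**
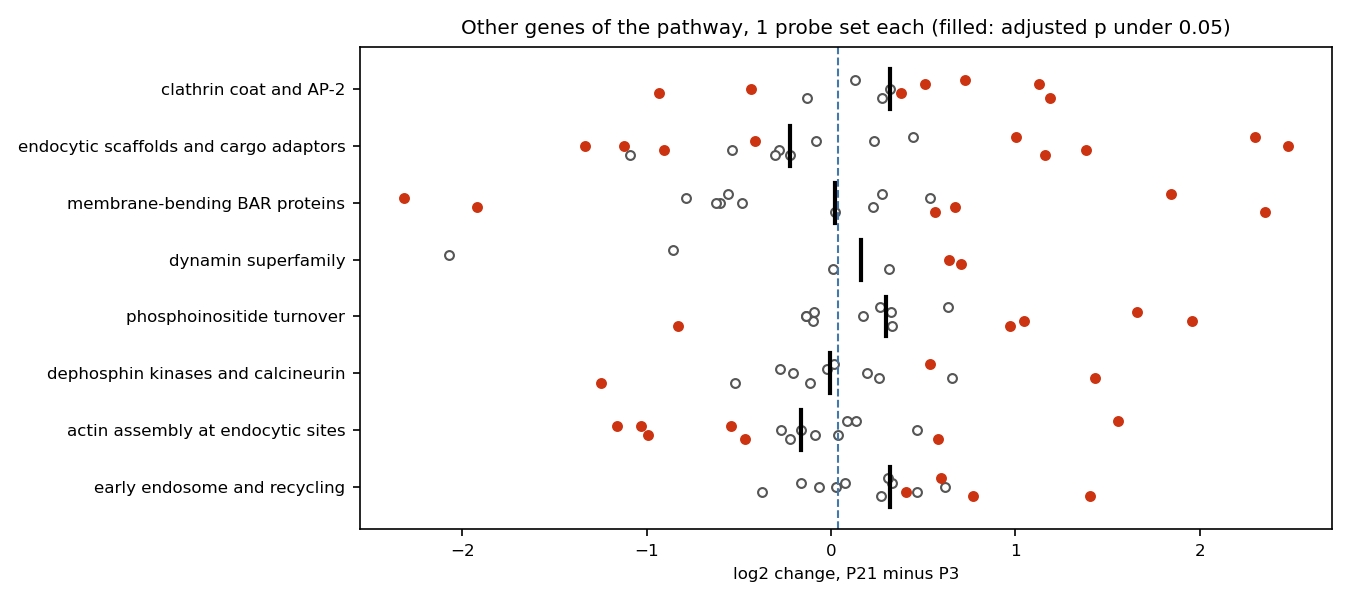
Change from P3 to P21 on the log2 scale (horizontal axis) of each further pathway gene, by list. Filled points have an adjusted p under 0.05, black bars are list medians and the dashed line is the median of all genes. Filled points lie on both sides of 0 in 6 of the 8 lists, and list medians run from -0.22 to 0.32.

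The patterns most like each member were sought by Pearson correlation over the 15 arrays among probe sets with a mean of at least log2 6. These correlations describe arrays that share age, and no p is given. Dnm1 was most like Ahsa1 (0.986), Chga (0.978) and Rab3a (0.973). Ahsa1 encodes a co-chaperone of Hsp90, Chga a protein of dense-core granules and Rab3a a GTPase of synaptic vesicles. Snap91 was most like Rnf14 (0.953), Usp14 (0.931) and Slc17a6 (0.896), the last being the gene of a vesicular glutamate transporter. Synj1 was most like Mfsd6 (0.917), Atp2b3 (0.914) and Zbtb4 (0.912), where Atp2b3 is a calcium pump of the plasma membrane. For Bin1 they were Lrrc45 (0.963), Coq10a (0.944) and Yif1a (0.937), and for Cltb Tmem38a (0.949), Cend1 (0.945) and Grina (0.935). The values were Alg8 (0.852), Rbbp6 (0.810) and Tsr2 (0.793) for Dnm3 and Glrx2 (0.829), Arsl (0.792) and Scap (0.775) for Amph. For the dim Dnm2 they were Jagn1 (0.950), M6pr (0.910) and Dgkq (0.900).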

How the data were processed

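Each of the 20 arrays has 1 column in the table, whose values the authors deposited as intensity on a linear scale. The submitters' processing notes name GCRMA without a version. GCRMA yields log2 values, so what turned them linear, or whether another tool made them, remains unknown here. The mean intensity of an array with the lowest and highest 2% removed was 100 to the nearest whole number in every case, so a scaling of whole arrays had been applied and none was added. The deposited intensity was turned into log2(intensity + 1). Of 31099 probe sets 20826 have 1 gene in the platform annotation, 436 several, 9780 are unnamed here and 57 are controls. Symbols of the 20826 probe sets with 1 gene were updated through the Entrez identifier (20758 matched) in RefSeq's GRCr8 table. Its gene positions served to find the windows that lay outside the annotated gene. Promoter windows are RefSeq's, of the same assembly.

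Probe sets above log2 4 in at least 5 of the 15 arrays entered 1 limma fit of the 3 ages (version 3.58.1, R 4.3.3, functions lmFit and eBayes), and p was adjusted by Benjamini-Hochberg over 15647 probe sets. Unless another setting is named with it, the adjusted p of a gene is from that fit. Related members were compared by exact permutation tests. List genes were read by the brightest of their probe sets. All member probe sets are named, and of each list up to 3 called genes with the smallest p for P21 vs P3. In the list of the clathrin coat and AP-2 the 2 genes that fell are named as well. The members and lists were chosen with earlier results of these data known. Fits were tested on simulated data. Alternatives were other sets of arrays, another pseudocount, other filters, 2 normalizations, 2 variance models, a replicate block, 1 probe set per gene and each array left out. Same-numbered arrays of different ages did not deviate together (correlations -0.060 to 0.078 over 13 pairs), so the numbers were not used as pairs. The arrays are of separate animals whose litters are not named. The p-values therefore compare differences between ages with the spread between these animals, and the number of arrays limits the precision.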

Additional observations from a re-analysis of the deposited data

Results flagged for a closer look

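In 52 groups of arrays examined (13 probe sets in 4 sets of arrays) 1 array lay far from the others of its group. For Amph, P8 replicate 3 stood at 5.92, while the nearest of the other 3 arrays was at 5.30. Among the 15 arrays of the tests, P8 replicate 3 also had the lowest median intensity (23.8) and the highest maximum (5249). Its share of probe sets above log2 4 was the lowest too (59.5%). The part of this in the members' values was not tested. Chance flags about 1 in 20 such groups.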

How the results depend on the processing

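With P8 replicates 5 to 9 counted as P8, 4, 3 and 3 member probe sets passed in the comparisons P8 vs P3, P21 vs P8 and P21 vs P3, where 2, 0 and 7 had passed. Signs then turned for Dnm3 1370666_at, Bin1, Synj1 and Snap91 from P3 to P8 (-0.89, -1.10, -0.15 and -0.64) and for Dnm3 1370672_a_at, Snap91 and Cltb 1375324_at from P8 to P21 (-0.84, 0.68 and -0.63), and the cause was not tested. Over all probe sets the counts called were 4486, 3123 and 2184 against 2435, 2619 and 6114, and the P3 to P8 split was 2742 higher and 1744 lower against 1222 and 1213. With a filter at log2 6, which left fewer members in the test, 4 members passed from P3 to P21 and 1 from P8 to P21. The latter count was also 1 with a pseudocount of 16 or a variance trend. Leaving out each array gave 2 to 3, 0 to 2 and 6 to 7. Sign changes in single members were otherwise of values near 0: Dnm3 1370666_at from P3 to P8 with array weights (-0.10) and Snap91 from P3 to P21 with quantile normalization (-0.058). With arrays left out Dnm3 1370666_at ran -0.15 to 0.26 from P3 to P8, Dnm2 -0.36 to 4.71e-05 from P8 to P21, and Amph -0.22 to 0.029 and Snap91 -0.022 to 0.12 from P3 to P21.

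With a pseudocount of 16 the unequal changes were 0.31 (P3 to P8) and 0.86 (P3 to P21) for Dnm1 minus Dnm2 and 0.90 for Dnm1 minus Dnm3 (P3 to P8), the last 2 now passing. With quantile normalization they were -1.03 and -0.34 for Dnm1 minus Dnm2, the first now passing, and 1.24 for Dnm2 minus Dnm3 from P3 to P21, now passing. The pairs with Dnm2 rest here too on its P3 values below log2 4. With arrays left out, from P3 to P8 the ranges were -0.61 to -0.33 for Dnm1 minus Dnm2, 0.73 to 1.12 for Dnm1 minus Dnm3 and -0.53 to 0.023 for Amph minus Bin1. From P8 to P21 they were -0.13 to 0.25 for Dnm1 minus Dnm3 and -1.29 to -0.74 for Amph minus Bin1, and from P3 to P21 -0.080 to 0.36, 0.79 to 1.11 and 0.59 to 1.19 for Dnm1 minus Dnm2, Dnm1 minus Dnm3 and Dnm2 minus Dnm3.

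With the replicate number as a block 1306, 1886 and 5393 probe sets were called, and the member counts of 2, 0 and 7 did not change. Of 120 recounts of the pathway lists 35 moved by over 1.5 times, 17 of them with all 20 arrays. Dim probe sets (Dnm2, Amph, Sh3gl2 and 1369710_a_at of Snap91) limit what could be seen of these genes.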
